A study of Homo sapiens with 2 samples.

Results

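The mitochondrial ribosome genes were taken as the protein-coding RefSeq genes with symbols that start with MRPL or MRPS followed by a digit. They numbered 77 of the 20033 protein-coding genes on chromosomes 1 to 22, X and Y, and lay on 21 chromosomes. By symbol, and with MRPS30 and MRPS18A counted in the large subunit where their proteins sit, 51 encode large-subunit proteins and 26 encode small-subunit proteins. The mitochondrial ribosome translates the messages of the mitochondrial genome, which encode core subunits of the respiratory chain and the ATP synthase. Its RNAs come from the mitochondrial genome, while its proteins are made from nuclear genes in the cytosol and imported. Promoters of nuclear genes for mitochondrial proteins are known for sites of GABP, a factor of the ETS family, and of NRF1 and YY1. EWS-FLI, the fusion that drives Ewing sarcoma, carries the DNA-binding domain of another ETS factor, FLI1, and ETS factors share a GGAA core in their sites.

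Binding of EWS-FLI was profiled by CUT&Tag, in which a transposase held by an antibody inserts sequencing adapters near the antibody's target. The cells were TC32, an established human Ewing sarcoma line, with 1 library after siEWS-FLI, named for the fusion, and 1 after siNEG. What siNEG stands for and which antibody was used are not spelled out in the labels. Both libraries were amplified for 14 and then 20 cycles. No other allele, drug, dose or time is given for either group. With 1 library a group there is no replicate check and no test between the groups, and intervals printed below are 95% intervals that cover counting error only.

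The list of binding sites held 6370 intervals with siEWS-FLI and 16284 with siNEG. A gene was counted when the highest point of an interval, its summit, lay within 1 kb of either gene end. Site strength was given as the pileup at the summit, the count of extended reads that cover that base, recovered from the deposited values and not scaled between libraries. The siEWS-FLI library was the shallower, with an estimated 0.561 of the siNEG reads once a window of the mitochondrial genome was set aside. The window itself had a ratio of 0.879. Any mitochondrial reads outside it were left in, so the estimate depends on how much is set aside. With 1 library each, depth and treatment cannot be told apart. Of 10 genes known as Ewing sarcoma markers or EWS-FLI targets, 0 had a siEWS-FLI summit and 5 had a siNEG summit within 1 kb, among them STEAP1 with 19 siNEG reads and BCL11B with 11. Markers of other cell types had no summit there in either library, with 0 of 6 hepatocyte genes, 0 of 5 blood genes and 0 of 5 epithelial genes. Over all protein-coding genes the shares were 12.3% with siEWS-FLI and 34.1% with siNEG. The interval of the 5 of 10 with siNEG, 18.7 to 81.3%, includes the latter. Within 50 kb, a siNEG summit was present for 10 of 10 Ewing, 4 of 5 blood, 2 of 6 hepatocyte and 5 of 5 epithelial genes. The share over all genes was 71.8%. Summits of both libraries were present there for 3 of 10 Ewing, 4 of 5 blood, 1 of 6 hepatocyte and 1 of 5 epithelial genes. Over all genes both were present for 8049 of 20033. Lists this short do not set the cell types apart.

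The RefSeq promoter table for GRCh38.p14, with 250 bases before and 50 bases from each annotated start, held 69 of the 77 genes. The first sequences shown are those of the strongest siNEG sites whose summit lay inside the window, from MRPS18B with 113 siNEG reads to MRPS21 with 32. Capitals mark every CGGAAG and its reverse complement CTTCCG, a short form of the ETS site. The windows are chr6:30617590-30617889 on the plus strand for MRPS18B, chr12:6493213-6493512 on the minus strand for MRPL51, and chr6:159789562-159789861 on the plus strand for MRPL18. Those of MRPS23 and MRPL38 are chr17:57849995-57850294 and chr17:75904835-75905134, both on the minus strand, and that of MRPS21 is chr1:150293611-150293910 on the plus strand.
MRPS18B: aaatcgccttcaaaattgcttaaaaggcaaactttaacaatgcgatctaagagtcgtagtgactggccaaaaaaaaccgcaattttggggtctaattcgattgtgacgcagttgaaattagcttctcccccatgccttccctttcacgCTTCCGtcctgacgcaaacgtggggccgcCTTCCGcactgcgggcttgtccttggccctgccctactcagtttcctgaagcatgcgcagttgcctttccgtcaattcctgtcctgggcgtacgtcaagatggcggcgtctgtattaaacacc
MRPL51: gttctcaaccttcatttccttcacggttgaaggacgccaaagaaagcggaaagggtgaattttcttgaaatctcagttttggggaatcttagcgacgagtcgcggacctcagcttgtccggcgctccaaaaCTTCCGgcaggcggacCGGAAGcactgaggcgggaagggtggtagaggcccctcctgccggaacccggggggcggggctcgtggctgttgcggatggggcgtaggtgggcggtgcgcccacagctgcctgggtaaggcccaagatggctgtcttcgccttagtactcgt
MRPL18: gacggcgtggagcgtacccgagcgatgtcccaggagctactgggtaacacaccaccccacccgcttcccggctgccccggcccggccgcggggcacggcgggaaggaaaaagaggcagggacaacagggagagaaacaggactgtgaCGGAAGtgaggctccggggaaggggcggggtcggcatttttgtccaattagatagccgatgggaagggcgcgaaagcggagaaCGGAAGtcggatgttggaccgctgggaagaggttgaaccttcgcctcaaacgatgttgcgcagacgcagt
MRPS23: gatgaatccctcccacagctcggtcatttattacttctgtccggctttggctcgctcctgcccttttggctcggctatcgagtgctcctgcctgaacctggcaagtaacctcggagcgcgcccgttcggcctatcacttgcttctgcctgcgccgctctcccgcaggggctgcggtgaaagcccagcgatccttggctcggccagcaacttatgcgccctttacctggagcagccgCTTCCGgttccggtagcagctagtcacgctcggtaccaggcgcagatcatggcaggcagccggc
MRPL38: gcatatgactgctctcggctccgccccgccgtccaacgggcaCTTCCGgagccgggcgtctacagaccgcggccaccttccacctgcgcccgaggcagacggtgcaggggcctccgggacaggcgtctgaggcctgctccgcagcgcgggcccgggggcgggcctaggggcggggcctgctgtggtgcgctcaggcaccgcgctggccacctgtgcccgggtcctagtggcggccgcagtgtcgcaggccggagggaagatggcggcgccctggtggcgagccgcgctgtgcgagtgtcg
MRPS21: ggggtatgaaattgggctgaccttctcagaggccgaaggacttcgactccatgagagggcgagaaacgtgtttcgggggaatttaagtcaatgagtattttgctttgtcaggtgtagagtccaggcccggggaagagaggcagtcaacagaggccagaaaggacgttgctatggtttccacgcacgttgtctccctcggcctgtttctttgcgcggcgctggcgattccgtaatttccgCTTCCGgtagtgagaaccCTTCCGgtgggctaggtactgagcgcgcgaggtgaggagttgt

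Each of these 6 windows held 1 or 2 of the short ETS strings. MRPL51 and MRPS21 each held 2 copies of the longer string CCGGAAG, MRPS23 and MRPL38 each held 1, and MRPS18B and MRPL18 held 0. The siNEG summit fell on base 22 of the printed MRPS18B window, base 84 of MRPL51, base 186 of MRPL18, base 218 of MRPS23, base 33 of MRPL38 and base 300 of MRPS21.

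A pair of promoters without a site is shown for contrast, chosen after the values were seen. The window of MRPS22, a small-subunit protein gene, at chr3:139343744-139344043 on the plus strand, held 3 copies of CCGGAAG, capitalised as above, and no summit of either library lay within 1 kb of the gene. The window of MRPL46, a large-subunit protein gene, at chr15:88467339-88467638 on the minus strand, held no ETS string but held AAGATGGCG, here in capitals, the string known from YY1 sites. No summit of either library lay within 50 kb of MRPL46.
MRPS22: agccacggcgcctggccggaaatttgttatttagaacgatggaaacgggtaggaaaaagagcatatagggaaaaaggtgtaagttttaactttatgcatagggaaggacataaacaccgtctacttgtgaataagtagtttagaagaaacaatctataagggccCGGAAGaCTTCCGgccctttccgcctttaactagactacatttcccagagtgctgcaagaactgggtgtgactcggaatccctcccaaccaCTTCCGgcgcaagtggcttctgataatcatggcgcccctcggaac
MRPL46: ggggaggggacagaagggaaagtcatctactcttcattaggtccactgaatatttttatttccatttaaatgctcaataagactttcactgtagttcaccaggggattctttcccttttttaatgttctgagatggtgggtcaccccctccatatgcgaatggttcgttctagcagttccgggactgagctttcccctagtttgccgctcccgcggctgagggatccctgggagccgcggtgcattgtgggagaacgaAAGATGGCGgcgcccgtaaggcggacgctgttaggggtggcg

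Sites stood at the ends of 13 of the 77 genes with siEWS-FLI and of 42 with siNEG. These counts were 16.9% and 54.5% of the genes, beside 12.3% and 34.1% of all protein-coding genes. The interval of the siNEG share was 42.8 to 65.9%. All 13 genes with a siEWS-FLI summit also had a siNEG summit, which left 29 genes with siNEG only and 35 with neither. No gene of the family had a siEWS-FLI summit alone within 1 kb of a gene end, against 1.14% of all genes. When distance was taken to the annotated start instead, MRPL36 had one. Of the 42 genes with a siNEG summit, 31.0% also had a siEWS-FLI summit, with an interval of 17.6 to 47.1%, and the share was 32.7% over all genes, inside that interval. The 13 genes were the same whether a summit within 1 kb or an overlap with the strongest siNEG interval was asked for, and the overlap rule gave 30.8% over all genes.

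Sites were present in both subunits. Among the 51 large-subunit genes 10 had a siEWS-FLI summit and 29, or 56.9%, had a siNEG summit. Among the 26 small-subunit genes 3 had a siEWS-FLI summit and 13, or 50%, had a siNEG summit. The siNEG summits of the family were of moderate height, with a median of 16 reads and a maximum of 113, against a median of 12 reads over all genes with a summit. The siEWS-FLI summits had a median of 9 reads, against 8 over all genes.

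**Figure D1:**
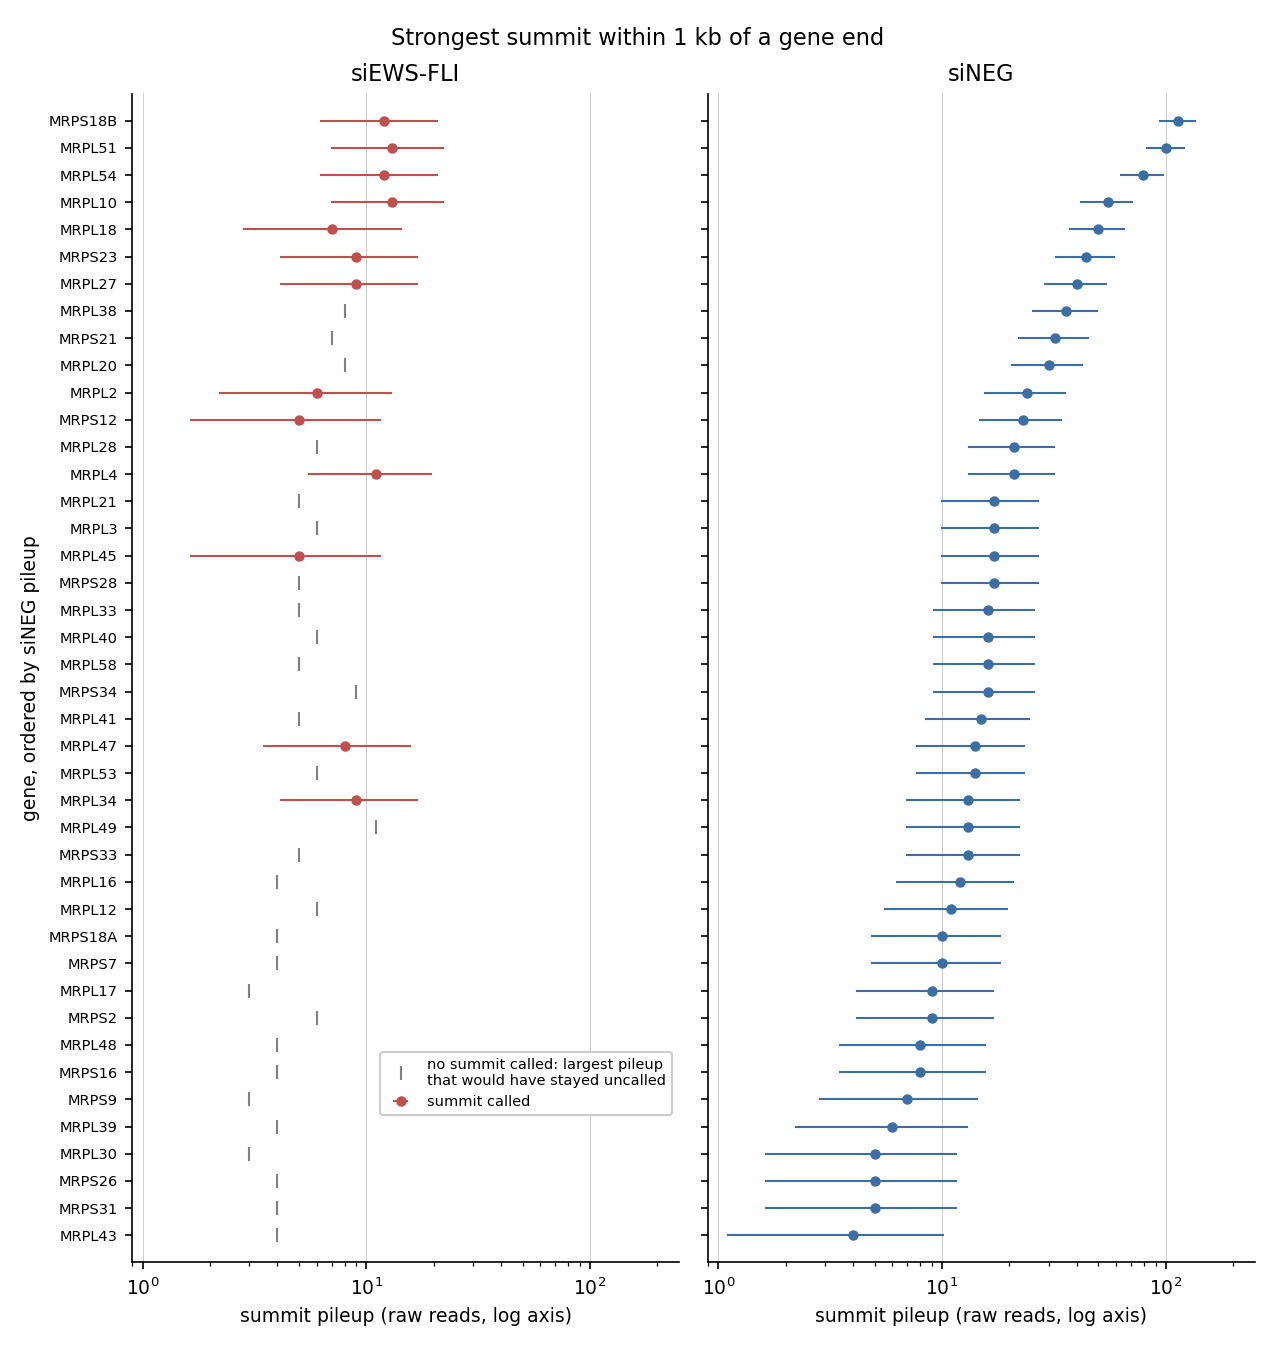
Summit pileup in raw reads on a log axis for the mitochondrial ribosome genes with a summit within 1 kb of a gene end, with siEWS-FLI and siNEG drawn side by side and bars for exact Poisson 95% intervals. The 13 shared sites had 5 to 13 siEWS-FLI reads and 13 to 113 siNEG reads, and the siNEG-only sites had 4 to 36 siNEG reads.

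In the small subunit the shared sites belonged to MRPS18B, MRPS23 and MRPS12. MRPS18B, a homologue of the bacterial S18 protein, had 12 siEWS-FLI reads (6.20 to 21.0) and 113 siNEG reads (93.1 to 136), the highest siNEG pileup of the family, on chromosome 6. The siNEG interval ran from 30617289 to 30618045 and the siEWS-FLI interval from 30617398 to 30617934, with the summits 0 bases apart. MRPS23, a protein with no bacterial counterpart, had 9 siEWS-FLI reads (4.12 to 17.1) and 44 siNEG reads (32.0 to 59.1). MRPS12, a homologue of the S12 protein of the decoding centre, had 5 siEWS-FLI reads (1.62 to 11.7) and 23 siNEG reads (14.6 to 34.5). The siEWS-FLI pileup was the lower one at all 3 genes, with pileup intervals that did not overlap. That held for 9 of the 13 shared sites of the family and for 60% of those of all genes, on reads not scaled for depth.

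In the large subunit the strongest shared sites stood at MRPL51 and MRPL54, both proteins of the mitochondrial ribosome without a bacterial counterpart. MRPL51, on chromosome 12, had 13 siEWS-FLI reads (6.92 to 22.2) and 100 siNEG reads (81.4 to 122). Its siNEG interval, 6493146 to 6494547, was the widest of the shared sites at 1402 bases. MRPL54, on chromosome 19, had 12 siEWS-FLI reads and 79 siNEG reads (62.5 to 98.5), in a siNEG interval from 3762615 to 3763076. The pileup ratio, siEWS-FLI over siNEG, was 0.130 at MRPL51 and 0.152 at MRPL54, against 0.106 at MRPS18B.

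Genes for proteins of the functional centres of the large subunit followed. MRPL10, the base protein of the stalk that engages elongation factors, had 13 siEWS-FLI reads and 55 siNEG reads (41.4 to 71.6). MRPL18, a homologue of a protein that binds 5S ribosomal RNA in bacteria, had 7 siEWS-FLI reads (2.81 to 14.4) and 50 siNEG reads (37.1 to 65.9). MRPL27, whose bacterial homologue reaches the peptidyl transferase centre, had 9 siEWS-FLI reads and 40 siNEG reads (28.6 to 54.5). These 3 genes had ratios of 0.236, 0.140 and 0.225 in that order, all with siEWS-FLI the lower.

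MRPL2, a core RNA-binding protein of the large subunit, had 6 siEWS-FLI reads and 24 siNEG reads (15.4 to 35.7). This siNEG summit lay 0.166 kb from the end of MRPL2 but 12 bases from an end of CUL7, the nearest gene. The siEWS-FLI summit lay 0.05 kb from the end of MRPL2, whose strand was missing from the promoter table. MRPL4, a protein of the exit tunnel, had 11 siEWS-FLI reads (5.49 to 19.7) and 21 siNEG reads (13.0 to 32.1). MRPL45, which holds the ribosome to the inner membrane near the tunnel exit, had 5 siEWS-FLI reads (1.62 to 11.7) and 17 siNEG reads (9.90 to 27.2). The intervals of the libraries overlapped at MRPL4 and MRPL45, and the ratio at MRPL4, 0.524, lay near the estimated depth ratio of 0.561.

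The weakest shared sites had the highest ratios. MRPL47, a homologue of bacterial L29 at the tunnel exit, had 8 siEWS-FLI reads (3.45 to 15.8) and 14 siNEG reads (7.65 to 23.5). MRPL34, a homologue of bacterial L34, had 9 siEWS-FLI reads and 13 siNEG reads (6.92 to 22.2). With a window of 2 kb its strongest siNEG site was another one, with 36 reads. Their ratios were 0.571 (0.208 to 1.46) and 0.692 (0.261 to 1.75), so neither pileup differed from the other library's by more than counting error. A siEWS-FLI site could be listed only above the calling limit, so low ratios could not be seen at weak siNEG sites.

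Across the 13 shared sites the median ratio was 0.225, with a range of 0.106 to 0.692, and the median over all genes with shared sites was 0.267. The ratio lay below the depth ratio of 0.561 at 11 of the 13 sites, against 84.3% of the 2107 shared sites of all genes, and its whole interval lay below it at 7, against 49%. Both shares of the family were near those of all genes, and both rest on the estimated depth ratio. The siEWS-FLI interval was the narrower at 12 of the 13 sites, with a median width of 316 bases and 3 of exactly 200 bases, against a median of 497 bases with siNEG. The exception was MRPL10, with 804 bases with siEWS-FLI and 495 with siNEG. Summits of the libraries stood 0 to 204 bases apart, with a median of 35.

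The 29 genes with a siNEG summit alone had weaker siNEG sites than the 13 shared ones, with a median of 13 reads against 40. For each, the largest siEWS-FLI pileup that would have gone uncalled was computed at the siNEG local background. It ranged from 3 to 11 reads. The siEWS-FLI background was not used, so this limit is a guide and not a bound. Some shared sites were called under it, such as MRPL51 with 13 siEWS-FLI reads under a limit of 21. MRPL18 was called with 7 siEWS-FLI reads under a limit of 10. An uncalled site is not shown to be empty.

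The strongest siNEG-only sites belonged to both subunits. MRPL38 had 36 siNEG reads (25.2 to 49.8), with a limit of 8 siEWS-FLI reads computed as above. MRPS21, a homologue of bacterial S21, had 32 siNEG reads with a limit of 7. MRPL20, whose bacterial homologue acts early in large-subunit assembly, had 30 siNEG reads with a limit of 8. At these 3 genes the siEWS-FLI limit lay well under the siNEG pileup.

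The next in order was MRPL28 with 21 siNEG reads and a limit of 6. MRPL21, MRPL3 and MRPS28 each had 17 siNEG reads, with limits of 5, 6 and 5 in that order, and MRPL3 is a core protein near the peptidyl transferase centre. MRPL33, MRPL40, MRPL58 and MRPS34 each had 16 siNEG reads. MRPL58 is a peptidyl-tRNA hydrolase that frees stalled chains, and its limit was 5, while the limit at MRPS34 was 9. Of the 29 genes, 21 had a siNEG pileup that stayed above this limit when multiplied by the estimated 0.561, and the other 8 did not. Counting error was left out of this comparison, and the background behind the limit was not scaled for depth. The split therefore does not show which sites lower depth alone could hide. The limit was computed for the family only, so no share over all genes stands beside this count.

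The remaining 18 siNEG-only genes had 4 to 15 siNEG reads. They included MRPL41 with 15, MRPL53 with 14, MRPL12 with 11 and MRPS7 with 10. MRPL12 forms the flexible part of the stalk whose base is MRPL10, and the limit of 6 siEWS-FLI reads at MRPL12 lay near its 11 siNEG reads. The lowest siNEG pileups were 5 reads at MRPL30, MRPS26 and MRPS31 and 4 reads at MRPL43.

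The share of siNEG sites also called with siEWS-FLI went with siNEG strength. At 4 to 9 siNEG reads 0 of 10 family genes had a siEWS-FLI summit, against 9.98% of all genes in that range. At 10 to 19 reads the count was 3 of 18, or 16.7%, against 24.2%. At 20 to 49 reads it was 5 of 9, or 55.6%, against 54.6%. At 50 reads or more all 5 family genes, MRPS18B, MRPL51, MRPL54, MRPL10 and MRPL18, had a siEWS-FLI summit, against 88.0% of all genes. The 3 lowest family sites also called with siEWS-FLI were MRPL34, MRPL47 and MRPL45.

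**Figure D2:**
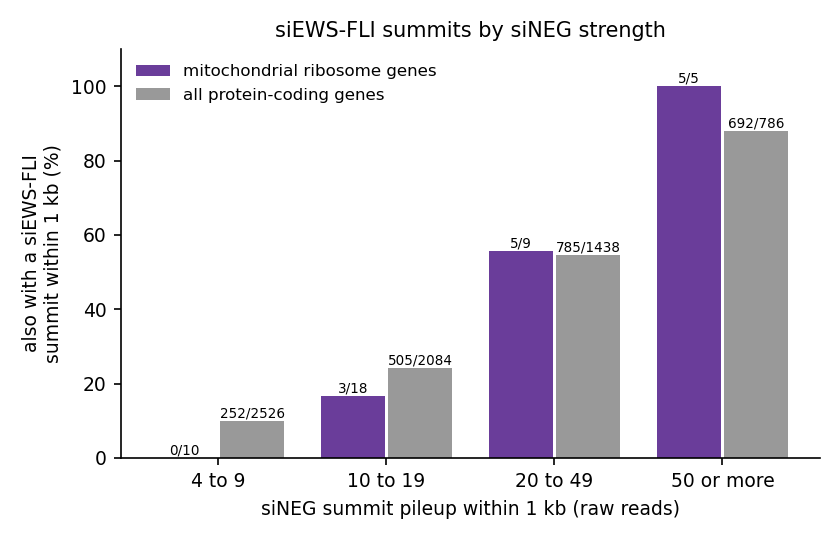
Share of genes with a siNEG summit within 1 kb that also had a siEWS-FLI summit within 1 kb, in percent, by siNEG summit pileup in reads, for mitochondrial ribosome genes and all protein-coding genes. The share in the family was 0% at 4 to 9 reads and 100% at 50 reads or more, and 9.98% and 88.0% over all genes.

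The sites stood at promoters. For genes whose strand was known from the promoter table, all 11 siEWS-FLI summits and all 38 siNEG summits lay within 1 kb of the annotated start, against 89.3% and 90.5% of such summits over all genes. The siEWS-FLI summits lay between -229 and 128 bases from the start, negative upstream, with a median of 25. The siNEG summits lay between -367 and 155 bases from the start, with a median of -7. Of the 38 siNEG summits, 19 lay upstream and 19 downstream of the start, and 36 lay within 250 bases of it. Most genes had a single siNEG summit within 1 kb, 40 of 42, and MRPS18B and MRPL2 had more than 1.

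**Figure D3:**
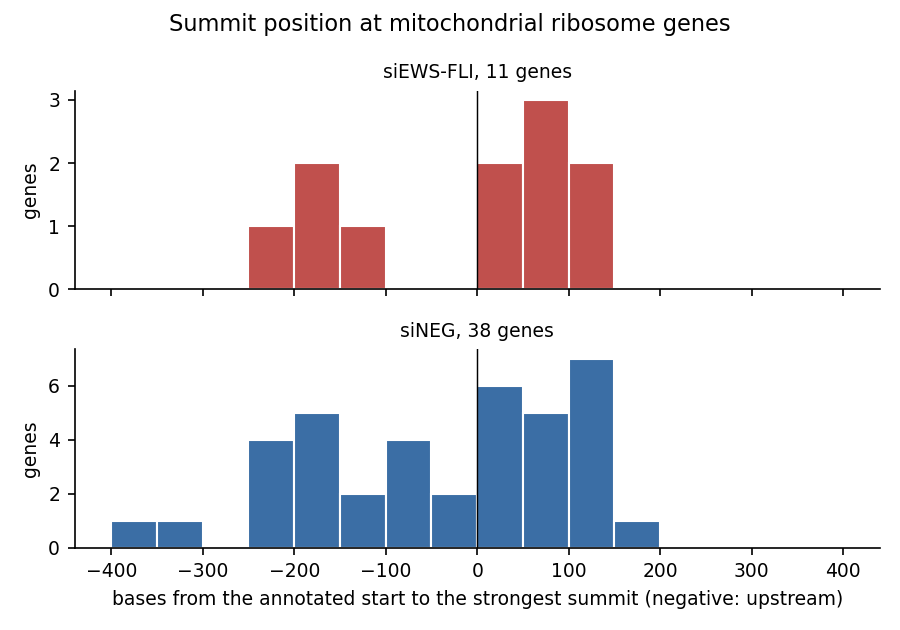
Histograms of the number of genes by distance from the annotated gene start to the strongest summit, in bases and negative upstream. The libraries are drawn apart, siEWS-FLI with 11 genes and siNEG with 38 genes. Summits of both libraries gathered within about 250 bases of the start.

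Many of these sites also lay near an end of a neighbouring gene. Of the 42 siNEG summits, 21, or 50%, also lay within 1 kb of an end of another protein-coding gene, against 35.7% over all genes. A siEWS-FLI summit was present at 9 of these 21 genes, or 42.9%, and at 4 of the 21 genes without a neighbour. Over all genes the shares were 41.4% and 27.9%. The siNEG pileups of the family had medians of 16 reads with a neighbour and 15 without.

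In 11 of the 21 pairs the genes lay on opposite strands and the neighbour's start stood within 1 kb of the summit. The order of the starts was not checked. At MRPS18B the partner was PPP1R10, a regulator of protein phosphatase 1, at MRPL51 it was NCAPD2, a condensin subunit, and at MRPL18 it was TCP1, a subunit of the cytosolic chaperonin. MRPL27 was paired with EME1, MRPS12 with SARS2, the mitochondrial seryl-tRNA synthetase, MRPL40 with HIRA, and MRPL49 with FAU, which encodes a cytosolic ribosomal protein. At such a start a summit cannot be given to one gene of the pair. In 6 further pairs a strand was missing from the table, among them NDUFB5, a complex I subunit, beside MRPL47, and TWNK, the mitochondrial DNA helicase, beside MRPL43. The other 4 pairs had another arrangement, such as ABHD8 beside MRPL34.

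No summit of either library lay within 1 kb of an end of 35 genes. The window was set by gene ends, and for 3 of these genes a summit stood at an annotated start that lay further inside the gene. At MRPL36 it was a siEWS-FLI summit alone, with 5 reads (1.62 to 11.7), at -146 bases from that start and 1.45 kb from the gene end. It was a weak call, with a −log10 q of 2.92, and nearest to NDUFS6. At MRPL24 the siNEG summit lay at -160 bases, with 6 siEWS-FLI reads and 83 siNEG reads (66.1 to 103), but 1.47 kb from the gene end and nearest to HDGF. At MRPL44, a protein with a ribonuclease III fold, a siNEG summit lay at -144 bases, with 15 siNEG reads (8.40 to 24.7), and 6.47 kb from the gene end. All 3 were counted as lacking a site under the rule.

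Widening the window to 50 kb gave 44 genes with a siEWS-FLI summit, or 57.1%, and 65 with a siNEG summit, or 84.4%, against 44.5% and 71.8% of all genes. Summits of both libraries were present for 43 of the 65, or 66.2%, against 55.9% over all genes. The family had 22 genes with siNEG alone and 1 with siEWS-FLI alone, MRPL36, the weak site at its annotated start that was nearest to NDUFS6. A window of this size takes in neighbouring genes: the strongest siNEG summit was nearest to the gene's own end for 32 of the 65. It lay within 1 kb for 26, and the strongest siEWS-FLI summit lay within 1 kb for 8.

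For some genes the tallest summit in this window belonged to a neighbour. Near MRPL20 the strongest site stood at AURKAIP1, itself a gene for a protein of the mitochondrial ribosome, with 42 siEWS-FLI reads and 307 siNEG reads. Near MRPL28 it stood at AXIN1, a scaffold of the Wnt pathway, with 20 siEWS-FLI reads and 190 siNEG reads. Near MRPL49 it stood at SYVN1 with 11 and 133 reads in the same order, and near MRPL58 at KCTD2 with 21 and 109. In each case the siEWS-FLI summit was the lower one.

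Of the 35 genes with no summit at a gene end, 23 had a siNEG summit within 50 kb. MRPS14, a homologue of bacterial S14, had 16 siEWS-FLI reads and 69 siNEG reads near CACYBP. MRPL55 had 64 siNEG reads near GUK1, while its strongest siEWS-FLI summit, with 7 reads, lay nearest to C1orf35. MRPL35 had 47 siNEG reads near IMMT, the core protein of the mitochondrial cristae junction complex, and MRPL57 had 48 siNEG reads. MRPL42 had 26 siNEG reads near SOCS2 and MRPS22 had 5 near COPB2. These summits lay more than 1 kb from the ends of the ribosome genes, and the sites were described by distance only.

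No summit of either library lay within 50 kb of 11 genes of the 77, against 23.9% of all genes. They were MRPL1, MRPL13, MRPL14, MRPL46, MRPL50, MRPS6, MRPS10, MRPS11, MRPS17, MRPS24 and MRPS30. MRPL46 and MRPS11 start head to head on chromosome 15, so they share their surroundings. MRPL1 is a homologue of the bacterial stalk protein L1, and MRPS17 and MRPS10 are homologues of small-subunit core proteins. The remaining genes with no site at an end but a siNEG summit within 50 kb, beside those described above, were MRPL9, MRPL11, MRPL15, MRPL19, MRPL22, MRPL23, MRPL32, MRPL37, MRPL52, MRPS5, MRPS15, MRPS18C, MRPS25, MRPS27 and MRPS35. Their strongest siNEG summits had 5 to 18 reads, with MRPL11, near DPP3, the highest of these 15 genes and MRPL23, near LSP1, the lowest.

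ETS strings were frequent in the promoters with a siNEG site. CCGGAAG, searched on both strands, was present in 29 of 69 family windows, or 42.0%, against 14.2% of all 15842 windows. Among family genes with a siNEG summit it was present in 25 of 38, or 65.8%, and among those without in 4 of 31, or 12.9%. Over all genes the shares were 28.5% with a siNEG summit and 6.08% without. A match is a run of letters and not a measured site.

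The string was found both in genes called in both libraries and in genes called with siNEG alone. It was present in 6 of 11 windows with both, or 54.5%, and in 19 of 27 with siNEG alone, or 70.4%. The shorter CGGAAG, which every CCGGAAG contains and which was chosen after the sequences were seen, was present in 10 of 11 and 21 of 27, or 90.9% and 77.8%. Over all genes it was in 44.3% of windows with a siNEG summit, 14.9% without and 25.6% of all windows. The 2 strings thus ordered these classes in opposite ways. In the 25 windows with CCGGAAG and a siNEG summit the nearest match lay a median of 79 bases from the summit, with a range of 13 to 303, and within 100 bases for 14.

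AAGATGGCG, the YY1 string, had the opposite pattern in the family. It was present in 3 of 38 windows with a siNEG summit, or 7.89%, and in 10 of 31 without, or 32.3%. Over all genes it was present in 4.77% of windows with a siNEG summit and 1.58% without, and in 2.74% of all windows. The palindromic NRF1 string of 10 letters was present in 1 of 38 and 0 of 31 windows, against 1.75% of all. GGAAGGAA, a pair of GGAA units, was present in 1 of 38 and 2 of 31, against 3.58% of all. A run of 4 GGAA units, the kind of repeat EWS-FLI is known to bind at distal sites, was present in 0 of 69 family windows and 2 of all 15842.

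**Figure D4:**
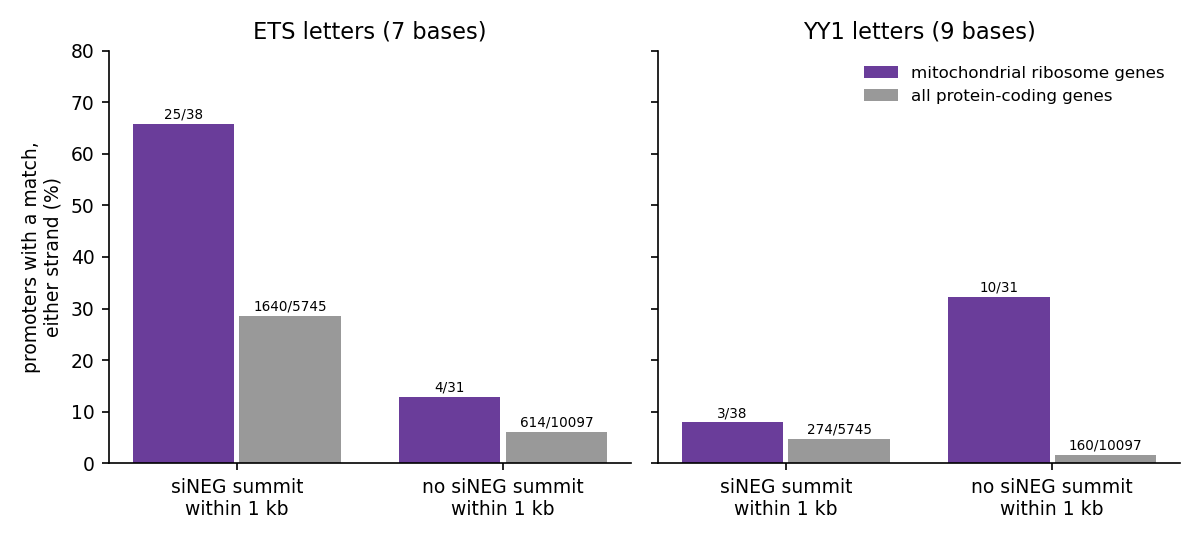
Share of promoter windows, in percent, that hold each string on either strand, for mitochondrial ribosome genes and all protein-coding genes with and without a siNEG summit within 1 kb. CCGGAAG was in 65.8% of family windows with a summit and 12.9% without, and AAGATGGCG in 7.89% and 32.3%.

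Sites were also present at other genes of the same machinery. Over all genes the shares within 1 kb, to set beside the lists below, were 12.3% with siEWS-FLI and 34.1% with siNEG. Of 6 genes listed here with the mitochondrial ribosome that lack the MRPL or MRPS prefix, 3 had a siEWS-FLI summit and 3 had a siNEG summit within 1 kb. The interval of the siNEG share was 11.8 to 88.2%. AURKAIP1 had 42 siEWS-FLI reads and 307 siNEG reads, above every MRPL and MRPS gene at its own ends. DAP3, a GTP-binding protein of the small subunit, had 6 siEWS-FLI reads and 9 siNEG reads. PTCD3, a small-subunit pentatricopeptide protein, had 6 siEWS-FLI reads and no siNEG summit, and NDUFAB1, an acyl carrier protein, had 6 siNEG reads alone. CHCHD1 and GADD45GIP1 had no summit there in either library.

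Of 22 genes for assembly and ribosomal RNA factors, 7, or 31.8%, had a siEWS-FLI summit and 15, or 68.2% (45.1 to 86.1%), had a siNEG summit. TFB1M, which methylates the small-subunit ribosomal RNA, had 27 siEWS-FLI reads and 314 siNEG reads. METTL15, another methyltransferase of that RNA, had 6 and 54 reads in the same order, and YBEY had 7 and 58. The GTPase gene MTG1 had 5 siEWS-FLI reads and 50 siNEG reads, while MTG2 had a siNEG summit alone, with 35 reads.

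Of 15 genes for translation factors, 2, or 13.3%, had a siEWS-FLI summit, near the 12.3% of all genes. A siNEG summit was present at 11, or 73.3% (44.9 to 92.2%). TUFM, the elongation factor that brings aminoacyl-tRNA to the ribosome, had 11 siEWS-FLI reads and 98 siNEG reads, and GFM2, a factor of ribosome recycling, had 4 and 13 in that order. MTRF1L, a release factor, MPV17L2 and MTIF2, the initiation factor, had siNEG summits alone, with 24, 17 and 12 reads in that order. Of 11 genes for transcription and RNA factors, 3, or 27.3%, had a siEWS-FLI summit and 9, or 81.8% (48.2 to 97.7%), had a siNEG summit. GABPA, the ETS subunit of GABP, had 15 siEWS-FLI reads and 85 siNEG reads, and its partner GABPB1 had 10 and 37. TFB2M, a mitochondrial transcription factor, had 9 and 78, while POLRMT, the mitochondrial RNA polymerase, had 26 siNEG reads alone.

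The family stood beside 2 larger sets of housekeeping genes. Among 86 cytosolic ribosomal protein genes, 25.6% had a siEWS-FLI summit and 75.6% had a siNEG summit within 1 kb, and among 82 nuclear respiratory chain genes the shares were 25.6% and 64.6%. The family's 16.9% and 54.5% lay below both sets and above the 12.3% and 34.1% of all genes. The share of siNEG sites also called with siEWS-FLI was 31.0% in the family, 32.3% in the cytosolic set and 35.8% in the respiratory chain set, and the median siNEG pileup was 16, 13 and 13 reads in that order. These are descriptions of 1 library a group, and no difference between the sets was tested.

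**Figure D5:**
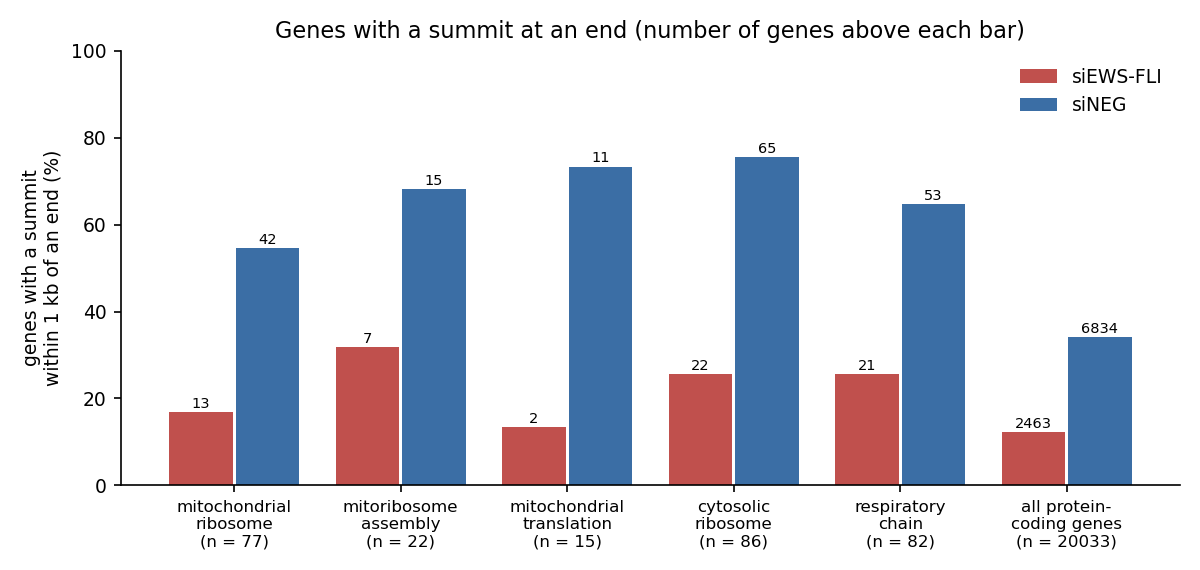
Share of genes, in percent, with a siEWS-FLI summit and with a siNEG summit within 1 kb of a gene end. Shown are the mitochondrial ribosome genes, assembly factors, translation factors, cytosolic ribosomal protein genes, respiratory chain genes and all protein-coding genes. Numbers above the bars are counts of genes. The family had 16.9% with siEWS-FLI and 54.5% with siNEG, against 12.3% and 34.1% of all genes.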

How the data were processed

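The submitters' processing notes list the build hg38 and the tools MACS2 2.2.9.1, Bowtie2 2.4.5 and Trim Galore 0.6.6. Whether a control library was used, and whether duplicate reads were removed, is not given in the sources used here. Per the deposited files, peaks were listed separately for each library. Each deposited line holds the authors' interval, a display score that was not used, a fold enrichment over the local background, the −log10 p-value, the −log10 q-value and the summit position. Deposited −log10 q-values began at 1.33 with siEWS-FLI and 1.32 with siNEG.

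The pileup at each summit was solved from 2 deposited values, the fold and the −log10 p. The fold was read as (pileup + 1) / (local background + 1), and p as the chance of a larger Poisson count. In both lists a whole number of reads fitted 100% of lines, within 0.001 in log10 p, or proportionally more where −log10 p passed 10. On simulated lines 100% of pileups were recovered, for 1458 lines with the siEWS-FLI library background and 1476 with that of siNEG. These lines were made with the same formulas, so they check the solving step and not the formulas. Their pileups did not reach those of the mitochondrial genome. Library-wide backgrounds were 0.239 reads per base with siEWS-FLI and 0.348 with siNEG. Over an assumed genome of 2700000000 bases, and without 1 window of 10000 bases of the mitochondrial genome, these correspond to 1596880 and 2844085 reads. With that window left in, the estimates were 3226500 and 4698000 reads. Read totals are not given, and reads amplified for 34 cycles are not independent molecules. An uncalled interval is under the caller's threshold.

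Where several lines had the same interval, the line with the highest −log10 q was kept. RefSeq tables for GRCh38.p14 gave gene positions and promoter windows, and hg38 has the same coordinates on the primary chromosomes. Intervals are exact Poisson for pileups, exact conditional binomial for ratios and exact Clopper-Pearson for shares. Alternatives were other windows, distance to the annotated start, each summit given to its nearest gene, a stricter q-value, wider intervals only, a siNEG list cut to the siEWS-FLI length, looser and stricter overlap, the strongest site by pileup, and the family with the 6 listed prefix-less genes. Python 3.11.15, numpy 2.4.6, pandas 2.3.3, scipy 1.17.1 and matplotlib 3.10.9 were used.

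The genes, lists and rules were chosen with earlier results of these data known. Genes were named when among the 20 with the highest siNEG pileup within 1 kb, when they had a siEWS-FLI summit there, or when they had no siNEG summit there. Of other lists, up to 4 genes with a siEWS-FLI summit and up to 3 more were named by siNEG pileup. The other genes named, among them MRPL12, MRPL30, MRPL41, MRPL43, MRPL49, MRPL53, MRPS7, MRPS26, MRPS31 and neighbours of the family, were chosen after their values were seen.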

Additional observations from a re-analysis of the deposited data

Results flagged for a closer look

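The mitochondrial genome, which was set aside from the gene-end counts, held called summits over the ribosomal RNA genes whose products join the proteins described above. Inside RNR2, the large-subunit RNA gene, the highest summit had 38357 reads with siEWS-FLI (37974 to 38743) and 34061 with siNEG (33700 to 34425), at different positions, 1689 and 2962. The siNEG summit nearest to the siEWS-FLI one lay 54 bases away, just outside the gene, with 43266 reads. Inside RNR1, the small-subunit RNA gene, the highest summits had 37582 reads with siEWS-FLI and 57488 with siNEG and lay 22 bases apart. Despite these raw counts, the fold over the local background was 2.05 with siEWS-FLI and 1.30 with siNEG at the RNR2 summits. At the RNR1 summits it was 2.33 and 3.04 in the same order. There were no control samples without antibody among the files used here, so the signal without antibody at these genes was not measured.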

How the results depend on the processing

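Of 61 counts and medians compared under 13 alternatives, 57 kept within 1.5 times the count, or within the spread set for a value, and 4 moved. The genes with a siEWS-FLI summit within 50 kb, 44 as reported, became 25 with a window of 10 kb, 23 when −log10 q had to reach 5 in each list and 27 when only intervals wider than 200 bases were kept. The genes whose strongest siNEG interval was overlapped by a siEWS-FLI interval, 13 as reported, became 7 when 50% reciprocal overlap was asked for. The alternatives remove distant, weak or narrow intervals by construction. The genes with a summit within 1 kb ranged from 9 to 16 with siEWS-FLI and from 31 to 45 with siNEG, and the median ratio at shared sites from 0.211 to 0.250. Among the single-gene pileups the siNEG value of MRPL34 moved, to 36 reads with a window of 2 kb. No value reversed. No paired analysis was possible because each group had 1 library, and for the same reason no library could be left out. Depth limits the siEWS-FLI calls: the lowest siEWS-FLI summit within 1 kb had 5 reads, and at the weaker siNEG sites a fall could not be told from a site missed at lower depth.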

Other observations

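Pseudogenes of the MRPL and MRPS genes had sites at shares near those of all pseudogenes. Of 106 such pseudogenes, 0 had a siEWS-FLI summit and 2, or 1.89%, had a siNEG summit within 1 kb of an end, beside 1.12% and 2.59% of all 17051 pseudogenes. The siNEG sites stood at MRPL45P2 on chromosome 17, with 21 reads, and at MRPS31P5 on chromosome 13, with 13 reads. Their parent genes had 17 siNEG reads at MRPL45 and 5 at MRPS31. Reads from a pseudogene and its parent can be exchanged where their sequences match.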
